A study of Homo sapiens with 12 samples.

Results

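Solute carriers are the membrane proteins that move nutrients, ions, metabolites and drugs across the cell surface and across the membranes of mitochondria, vesicles, the Golgi and the endoplasmic reticulum. They were taken by name: a gene counted as a solute carrier when its symbol in either deposited table was SLC or SLCO followed by a family number, a letter and a member number, with SLC2A1, SLC2A3 and SLC40A1 left out. This rule found 217 of the 12365 gene symbols, in 45 families. The Hep3B table held 140 of them among 8717 entries, the Huh7 table held 150 among 7533 genes, and 73 were in both.

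Hep3B and Huh7 are established human hepatocellular carcinoma lines. RNA was sequenced from lenvatinib-resistant and parental cells of each line, in 4 groups of 3 libraries. Lenvatinib blocks several receptor tyrosine kinases, those for VEGF and FGF among them, and is used against liver cancer. The groups were lenvatinib-resistant Hep3B, parental Hep3B, lenvatinib-resistant Huh7 and parental Huh7, all grown in DMEM with fetal bovine serum. Both DMSO and lenvatinib are named as treatments, without saying which library had which, so the presence of the drug at harvest is not known. Neither the way the resistant cells were raised nor whether they are 1 clone is given in the sources used here. Nothing says that the replicates were separate cultures, and p-values then measure only the spread between these libraries, which may be technical.

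The families divide the work by substrate. At the surface of a liver cell, SLC22, SLC47 and SLCO carriers take up or release organic ions, bile acids and drugs, SLC2 and SLC5 carriers move sugars, and SLC1, SLC6, SLC7, SLC38 and SLC43 carriers move amino acids. Some SLC7 exchangers work only when paired with the SLC3A2 heavy chain, and many amino acid exchangers swap one amino acid against another, so that their net flux depends on uptake through other carriers. SLC25 carriers link the cytosol to the mitochondrial matrix, SLC30 and SLC39 carriers move zinc out of and into the cytosol, and SLC35 carriers bring nucleotide sugars into the Golgi and the endoplasmic reticulum.

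Values are scaled reads, that is, whole reads recovered from the deposited values and multiplied by the scaling factor of the library. Fold changes are resistant over parental on the log2(scaled reads + 1) scale, given ± SE, while means of scaled reads are given ± SD (n = 3 per group). Such fold changes understate the change of genes with few reads. A gene was called higher or lower at an adjusted p under 0.05 (limma, Benjamini-Hochberg over the whole table). Reads over the listed genes came to between 6184939 and 6884477 per library in resistant Hep3B, between 6363939 and 7475190 in parental Hep3B, between 11480608 and 11800771 in resistant Huh7 and between 12029528 and 14174202 in parental Huh7. A Hep3B entry counts 1 RefSeq transcript of a gene, so a low value there may miss most of the reads of the gene: 35 of the 140 solute carrier entries were non-coding or stayed under 20 scaled reads in both groups, and only 4 of these passed the test. The Huh7 table lists only genes that had already passed the authors' test, so there the direction and size of a change are a description, and the call adds nothing. This selection can overstate sizes, and the adjusted p-values given for Huh7 are not separate evidence. In bulk RNA, fewer cells of a type and less RNA per cell cannot be told apart.

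Liver markers were abundant in both lines, but they moved too. In Hep3B, all 5 listed hepatocyte and hepatoma markers of 9 looked for were lower in resistant cells, where their summed level was 161940.0 to 166959 scaled reads, against 346937 to 355009 in parental cells. In Huh7, 4 of the 6 listed markers were higher and 2 were lower in resistant cells, with sums of 497853 to 521631 in resistant and 410086 to 458024 in parental libraries. Fibroblast markers summed to 2224 to 2501 scaled reads in resistant and 616 to 693 in parental Hep3B libraries (4 of 6 markers listed, 2 higher and 2 lower). In Huh7 these sums were 884 to 888 in resistant and 4161 to 4350 in parental libraries (3 of 6 listed, all lower). Leukocyte markers (2 of 5 listed in each line) summed to 108 to 121 in resistant and 438 to 520 in parental Hep3B and to 5279.98 to 5460.24 in resistant and 6456 to 6674 in parental Huh7, most of it LYZ. Endothelial markers (2 of 5 listed in Hep3B and 3 of 5 in Huh7) summed to 81.4 to 82.6 in resistant and 28.5 to 46.6 in parental Hep3B, and to 236 to 255 in resistant and 133 to 171 in parental Huh7, where PECAM1 was higher and VWF and ESAM, averaging under 17 scaled reads in each group, were lower. The part of these shifts in the solute carrier values was not tested.

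In Hep3B, solute carriers changed about as often as other entries, in both directions. Of the 140 entries, 35 were higher and 31 were lower in resistant cells and 74 did not pass, so 47.1% were called, against 49.5% of all entries. Rises made up 25% of the entries, against 27.6% of all, and falls 22.1%, against 21.9%. The median log2 fold change of the solute carriers was 0.01, beside 0.07 for all entries, and single values ran from -3.30 (SLC6A14) to 4.52 (SLC30A4). Rises of at least 2-fold were called for 17 solute carriers (12.1%, against 10.7% of all entries) and falls of that size for 8 (5.71%, against 4.71%). The resistant and parental libraries did not overlap for 76 entries (54.3%, against 56.3% of all). The balance of directions moved with the scaling: quantile normalization gave 27 higher and 36 lower, and setting the median of all entries to 0 gave 29 and 37.

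In Huh7, 75 solute carriers were higher and 75 were lower in resistant cells. All 150 passed, as did 100% of the tested genes. Over all genes 48.0% were higher and 52.0% lower, and family counts in this line stand against these shares. The median log2 fold change of the solute carriers was 0.01, beside -0.19 over all genes, and values ran from -2.37 (SLC22A31) to 3.52 (SLC7A9). With equal numbers higher and lower and few genes listed near 0, this median falls in a gap and is unstable. Keeping genes with at least 10 scaled reads in 3 libraries gave -0.177 for the solute carriers, beside -0.183 over all genes. At least 2-fold, 21 were higher (14.0%, against 12.7% of all genes) and 19 were lower (12.7%, against 12.9%). Setting the median of all genes to 0 adds 0.19 to each Huh7 value; all 75 rises then stayed called, 59 falls did, and 16 falls no longer passed, the largest of them SLC34A2 at -0.58 before centring. The groups did not overlap for 149 solute carriers (99.3%, against 98.6% of all genes), SLC12A9 being the exception. Resistant libraries were wholly above the parental ones for 74 (49.3%, against 47.4% of all genes) and wholly under them for 75, against 51.2% of all genes.

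**Figure D1:**
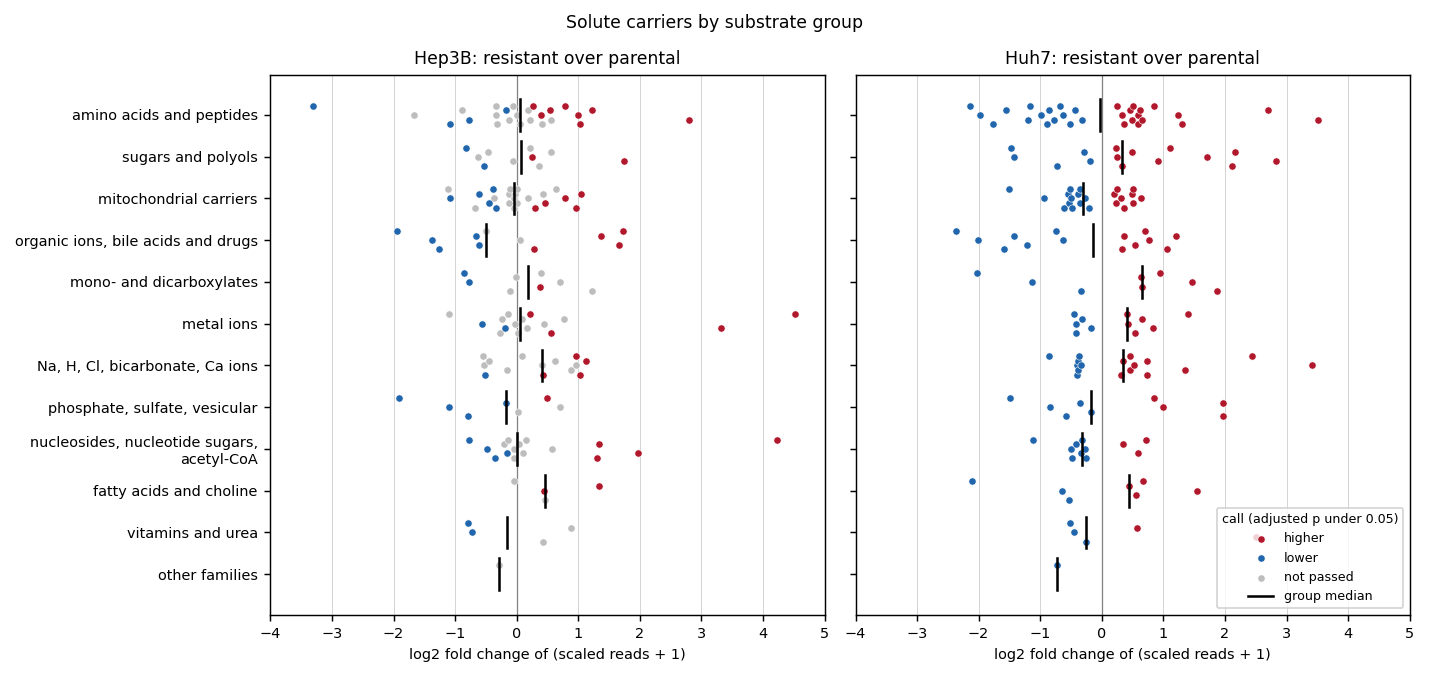
Log2 fold change, resistant over parental, of every solute carrier in Hep3B (left, 140 entries) and Huh7 (right, 150 genes), 1 point per gene, in 12 groups by family number. Red points were called higher, blue points lower and grey points did not pass; the black bar is the group median, which lay between -0.50 and 0.45 for the 11 groups with several members in Hep3B.

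Among metal carriers in Hep3B, 4 of 16 entries were higher, 2 were lower and 10 did not pass, and under median centring the count was 2 higher and 3 lower. The zinc exporters SLC30A4 and SLC30A3 were among the 3 largest rises of all solute carriers. SLC30A4, which fills vesicles with zinc, had 32.9, 27.5 and 36.6 scaled reads in resistant Hep3B libraries, against 0, 0 and 1.98 in parental ones. It rested on 97 reads over the resistant libraries and 2 over the parental ones, a ratio of 48.6 with an exact 95% counting interval of 13.1 to 407, which covers counting error only. The gene was at or near 0 in every parental library and clear in every resistant one, and its log2 fold change depends on the pseudocount, at 4.52 with 1 and 2.73 with 5. SLC30A3, known for loading zinc into synaptic vesicles, had 77.9, 93.7 and 70.1 scaled reads in resistant and 5.52, 11 and 5.94 in parental libraries, a log2 fold change of 3.31 ± 0.31 (adjusted p = 1.27e-08). Its entry is 1 of 13 RefSeq transcripts of the gene. The surface copper importer SLC31A1 fell, with 1349, 1328 and 1373 scaled reads in resistant and 2023, 2019.9 and 1935 in parental libraries (-0.56 ± 0.06, adjusted p = 3.02e-08). The entry of SLC39A14, an importer of zinc, iron and manganese, held only 17.8 ± 5.63 scaled reads in resistant and 13.3 ± 5.53 in parental cells and did not pass (0.44 ± 0.40).

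Amino acid carriers in Hep3B split 8 higher and 4 lower, with 13 of 25 not passing, and 6 higher and 5 lower under quantile normalization. SLC6A14, a concentrative importer of neutral and cationic amino acids, had the largest fall of any solute carrier in this line. It had 283, 169 and 164 scaled reads in resistant Hep3B libraries, against 2138, 1648 and 2157 in parental ones, and the log2 fold change was -3.30 ± 0.27 (adjusted p = 0.000411). Even the highest resistant library lay far under the lowest parental one. SLC6A19, which takes up neutral amino acids in gut and kidney, was lower as well (-0.77), as was the neutral amino acid carrier SLC43A1 (-1.08 ± 0.29). The glutamine carrier SLC38A5 moved the other way, with 39.4, 31.6 and 29.3 scaled reads in resistant and 3.68, 2.19 and 6.93 in parental libraries (2.80 ± 0.41, adjusted p = 8.58e-06). SLC38A3, which moves glutamine across the liver cell surface, averaged 857 ± 36.3 scaled reads in resistant and 587 ± 34.9 in parental cells (0.55 ± 0.07). The small neutral amino acid exchanger SLC7A10 had 136, 104 and 96.2 scaled reads in resistant and 60.8, 38.4 and 67.4 in parental libraries (1.02 ± 0.21), with no overlap.

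Several amino acid carriers that matter in tumour cells did not pass in Hep3B, were called by little or had too few reads there. SLC7A5, the exchanger for large neutral amino acids, has a single RefSeq transcript. It averaged 7584 ± 597 scaled reads in resistant and 7951 ± 637 in parental cells, a log2 fold change of -0.07 ± 0.06 (adjusted p = 0.399). Of 18 alternatives, only the fit with the replicate number as a block called it lower (adjusted p = 0.0408 in limma). The cystine importer SLC7A11 was called lower by a small amount (-0.18 ± 0.07, adjusted p = 0.0307), and 6 of its 18 alternative settings did not keep that call: quantile normalization, a fit without the trend, and leaving out resistant replicate 1 or 3 or parental replicate 2 or 3. The rise of the glutamate carrier SLC1A1, 1.22 ± 0.41 from 9.64 ± 5.94 scaled reads in parental cells, was also lost under 6 of 18, among them leaving out resistant replicate 1 or parental replicate 1 or 3 (adjusted p = 0.0892, 0.0752 and 0.0549 in limma). The entries of SLC3A2 (a non-coding transcript), SLC1A5 and SLC38A2 averaged at most 21.0 scaled reads in either group, and none passed. SLC38A2 did pass without resistant replicate 1, at -1.22, under quantile normalization and with the replicate number as a block.

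Of 11 carriers of organic ions, bile acids and drugs in Hep3B, 4 were higher, 5 were lower and 2 did not pass, or 3, 5 and 3 under TMM, median centring, edgeR and DESeq2; over all entries 49.5% were called. The prostaglandin carrier SLCO2A1 rose, with 351, 377 and 312 scaled reads in resistant and 101, 107 and 103 in parental libraries (1.72 ± 0.12, adjusted p = 1.71e-10). Every resistant library was above every parental one by a wide margin. Falls were found for SLC22A9, a liver anion carrier, which had 237, 225 and 245 scaled reads in resistant and 546, 556 and 592 in parental libraries (-1.26 ± 0.09), and for SLC22A15 (112, 127 and 129.7 in resistant, 319, 305 and 331 in parental, -1.37 ± 0.12). The cation and drug exporter SLC47A1 was lower too, at 499 ± 13.4 scaled reads in resistant and 789.5 ± 51.1 in parental cells (-0.66 ± 0.08). SLCO1B1 and SLCO1B3, neighbouring genes on chromosome 12 whose products take up bile acids, bilirubin conjugates and statins from the blood, went in opposite directions. SLCO1B1 had 33.8, 33.6 and 37.7 scaled reads in resistant and 16.6, 6.58 and 9.91 in parental libraries (1.67 ± 0.34). SLCO1B3 had 0.939, 4.07 and 3.14 in resistant and 12, 7.68 and 19.8 in parental libraries (-1.95 ± 0.56, adjusted p = 0.00649). Both are low, their sequences are alike enough for reads to be assigned to either, and without parental replicate 3 the fall of SLCO1B3 did not pass (adjusted p = 0.0568).

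**Figure D2:**
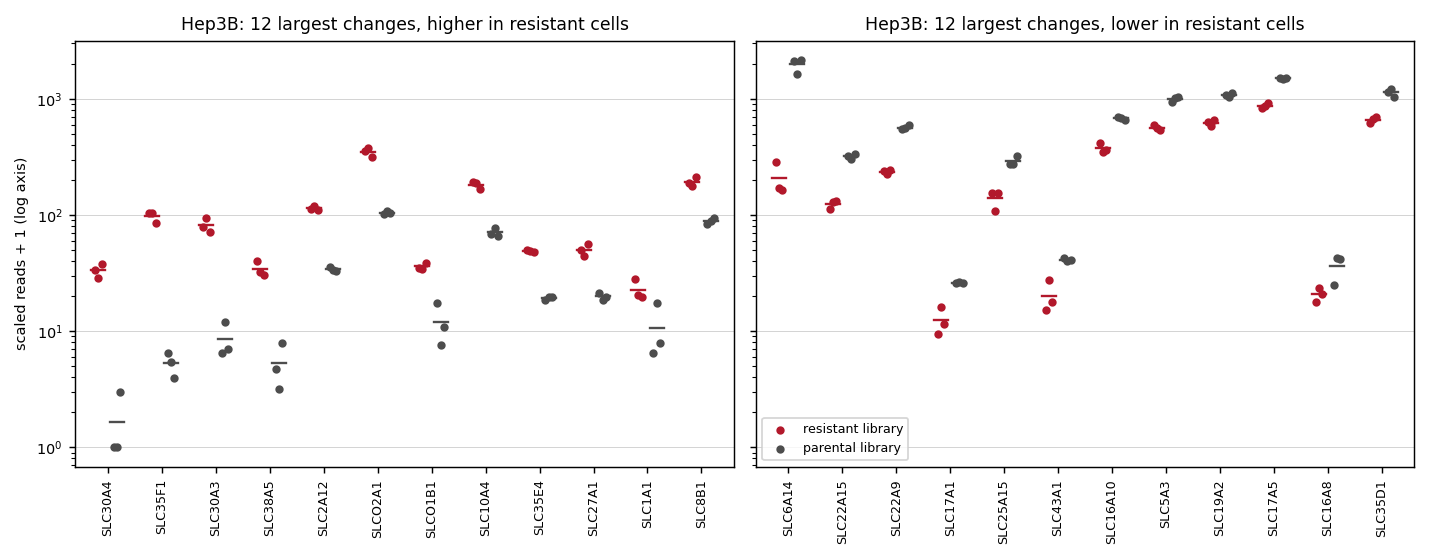
Scaled reads + 1 on a log axis in each Hep3B library for the 12 solute carriers with the largest rises (left) and the 12 with the largest falls (right), among called entries whose groups do not overlap and whose mean reaches 20 scaled reads in a group. Red points are resistant libraries, grey points parental ones, and bars are group means (n = 3); SLC30A4 lies at 0 reads in 2 parental libraries.

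Sugar and polyol carriers in Hep3B gave 2 rises, 2 falls and 6 entries that did not pass, or 1 rise and 3 falls under median centring. The glucose carrier SLC2A12 had 113, 119 and 109.8 scaled reads in resistant and 35.0, 32.9 and 31.7 in parental libraries (1.75 ± 0.19, adjusted p = 1.01e-07). The myo-inositol importer SLC5A3 had 599, 561 and 537 scaled reads in resistant and 942, 1009 and 1037 in parental libraries (-0.82 ± 0.07). Both pairs of groups were well apart, the first upward and the second downward. The entry of SLC37A4, the glucose 6-phosphate carrier of the endoplasmic reticulum, did not pass at 0.56 ± 0.35.

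Mitochondrial carriers in Hep3B were higher for 5 and lower for 5 of 24 entries, or for 4 and 6 under median centring and 3 and 6 under quantile normalization. SLC25A15, the ornithine carrier of the urea cycle, had 155, 107 and 154 scaled reads in resistant and 276, 274 and 324 in parental libraries (-1.08 ± 0.14, adjusted p = 2.01e-06). No resistant library reached the lowest parental one. SLC25A33, a pyrimidine nucleotide carrier, fell by 0.61 on the log2 scale, and SLC25A43 rose by 0.97. SLC25A5, an ADP/ATP carrier, has 1 RefSeq transcript and averaged 2344 ± 116 scaled reads in resistant and 2344 ± 98.0 in parental cells, a log2 fold change of 0.00 ± 0.06. The carnitine carrier SLC25A20, at 299 ± 28.6 in resistant and 297 ± 24.0 in parental cells, gave 0.01 ± 0.11.

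Of the thiamine carriers, SLC19A2 (-0.79 ± 0.07) and SLC19A3 (-0.73) were both lower in resistant Hep3B, as were all 3 listed SLC17 members. SLC17A5, the sialic acid exporter of lysosomes, had 829, 874 and 917 scaled reads in resistant and 1507, 1491 and 1515 in parental libraries (-0.79 ± 0.06), whereas SLC17A1, a urate and phosphate carrier, averaged only 11.4 ± 3.50 in resistant and 24.9 ± 0.241 in parental cells (-1.10 ± 0.34). The fall of SLC17A9 rested on few reads and was lost with edgeR and with DESeq2. Among ion exchangers 4 of 14 were higher and 1 was lower. SLC8B1, which lets calcium out of mitochondria in exchange for sodium, had 186, 178 and 213 scaled reads in resistant and 81.9, 87.7 and 93.1 in parental libraries (1.13 ± 0.14), and the sulfate carrier SLC26A2 averaged 462 ± 20.3 in resistant and 238 ± 4.64 in parental cells (0.96 ± 0.09).

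Of 16 carriers of nucleosides, nucleotide sugars and acetyl-CoA in Hep3B, 4 were higher, 4 were lower and 8 did not pass, or 4 higher and 5 lower under median centring and TMM. SLC35F1 had a rise close in rank to that of SLC30A4, which it passes with a pseudocount of 5, with 102, 104 and 84.7 scaled reads in resistant and 5.52, 4.39 and 2.97 in parental libraries (4.23 ± 0.31, adjusted p = 3.5e-10). SLC35E4 also rose (1.34 ± 0.25), and SLC35D1, which brings UDP-glucuronic acid into the endoplasmic reticulum, fell (-0.78 ± 0.07). The fatty acid carrier SLC27A1 had 48.8, 43.8 and 55.4 scaled reads in resistant and 20.3, 17.5 and 18.8 in parental libraries (1.34 ± 0.25), and its relative SLC27A4 was higher by 0.45. SLC27A5, the bile acid and fatty acid ligase of the liver, did not pass (0.46 ± 0.39). SLC10A4, from the bile acid carrier family, rose to 182 ± 14.3 scaled reads in resistant cells, against 69.8 ± 6.34 in parental cells (1.37 ± 0.15).

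Most other called entries of Hep3B moved by less. The peptide carrier SLC15A1 averaged 778 ± 10.5 scaled reads in resistant and 454 ± 34.6 in parental cells (0.78 ± 0.08). SLC12A7, a potassium and chloride cotransporter, averaged 1747 ± 135 in resistant and 1304 ± 107 in parental cells (0.42 ± 0.07), and SLC26A10 113 ± 8.28 in resistant and 55.0 ± 4.95 in parental cells (1.03 ± 0.17). All 3 were higher. Higher too were the mitochondrial iron carrier SLC25A28 (0.46 ± 0.13, lost under quantile normalization) and SLC25A53 (1.05 ± 0.20). SLC2A13, the proton-coupled myo-inositol carrier, was lower, at 282 ± 37.7 scaled reads in resistant and 406 ± 45.2 in parental cells (-0.53 ± 0.11). With SLC5A3, both listed myo-inositol carriers thus fell. SLC35F2 was lower as well (-0.48 ± 0.11), and SLC33A1, which brings acetyl-CoA into the endoplasmic reticulum, was called lower (-0.35 ± 0.13) but not without resistant replicate 1 or 2 or parental replicate 1. The nucleoside importer SLC28A2 had only 13.1, 6.11 and 6.28 scaled reads in resistant and 0.921, 1.10 and 1.98 in parental libraries, and its rise did not pass without resistant replicate 1. SLC31A2, the neighbour of SLC31A1 on chromosome 9, was called higher (0.55 ± 0.20) where SLC31A1 was lower, but 9 of 18 settings did not keep this, among them leaving out resistant replicate 1 or 3 or parental replicate 1 or 2.

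Of all 30 carriers of amino acids and peptides in Huh7, 15 were higher and 15 were lower in resistant cells. Carriers of large neutral amino acids and glutamine went both ways. SLC3A2, SLC7A5, SLC7A8, SLC1A5, SLC38A2 and SLC38A4 were lower, while SLC43A1 (0.46 ± 0.05), SLC43A2 (0.49 ± 0.09), SLC6A14 and SLC38A11 (0.51 ± 0.16) were higher. SLC3A2, the shared heavy chain, had 5979, 5690.5 and 5508 scaled reads in resistant Huh7 libraries, against 10174, 9181 and 8329 in parental ones (-0.68 ± 0.06). Its large neutral amino acid partner SLC7A5 had 5708, 5588 and 5709.5 in resistant and 9069.7, 8851 and 8318 in parental libraries (-0.63 ± 0.05). Both genes had every resistant library under every parental one. SLC7A8, another light chain for neutral amino acids, fell further, to 1101, 1065 and 1075 scaled reads in resistant libraries, against 4990.3, 4737 and 4575 in parental ones (-2.14 ± 0.05, adjusted p = 1.98e-16). The glutamine exchanger SLC1A5 had 955, 1017 and 879.7 in resistant and 2294, 2134 and 1994 in parental libraries (-1.17 ± 0.07). The sodium-coupled importers SLC38A2 and SLC38A4 lie side by side on chromosome 12 and were both lower. SLC38A2 had 8021, 7519 and 7457 scaled reads in resistant and 12983, 14289 and 15363 in parental libraries (-0.89 ± 0.06). SLC38A4 had 326, 319 and 307 in resistant and 863, 938 and 1007 in parental libraries (-1.56 ± 0.08).

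SLC7A11, which imports cystine in exchange for glutamate with the same SLC3A2 heavy chain, had 1466, 1404 and 1446 scaled reads in resistant Huh7 libraries and 566, 630.1 and 629.6 in parental ones (1.24 ± 0.07, adjusted p = 4.81e-12). Every resistant library was far above the highest parental one. Over the whole family, 3 of 9 SLC7 genes were higher (SLC7A11, SLC7A9 and the cationic amino acid carrier SLC7A2) and 6 were lower, among them the cationic carrier SLC7A1 (-0.78 ± 0.08) and the exchanger SLC7A6 (-0.86 ± 0.08). SLC7A9, a cystine and cationic amino acid exchanger of kidney and gut, had the largest fitted rise of any solute carrier in Huh7 with a pseudocount of 1, an order that other settings change, with 74.7, 75.6 and 80.3 scaled reads in resistant and 4.90, 4.07 and 9.49 in parental libraries (3.52 ± 0.31, adjusted p = 4.77e-09). SLC7A10 fell, with 310.3, 276 and 306 scaled reads in resistant and 1004, 1087 and 959 in parental libraries (-1.77 ± 0.08). The counts of 3 and 6 were the same under every scaling tried (TMM, median centring, quantile normalization, edgeR and DESeq2). This adds little, since every listed gene had already passed the authors' test and none of these 9 lies near 0.

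The SLC6 family holds sodium- and chloride-coupled importers of amino acids, their derivatives and amines. Of its 9 listed genes, 8 were higher in resistant Huh7 and 1 was lower, where 48.0% of all genes were higher. The same scalings left this split unchanged, which adds little, since few genes near 0 are listed. SLC6A14 had 637, 566 and 621 scaled reads in resistant and 334, 396 and 500.2 in parental libraries (0.59 ± 0.11). The creatine carrier SLC6A8 averaged 498 ± 13.5 scaled reads in resistant and 327 ± 71.4 in parental cells (0.63 ± 0.12), and the GABA carrier SLC6A11 2489.9 ± 60.6 in resistant and 1581 ± 88.2 in parental cells (0.66 ± 0.06). The serotonin carrier SLC6A4 (0.85 ± 0.15), the taurine carrier SLC6A6 (0.33 ± 0.06) and the glycine carrier SLC6A9 (0.36 ± 0.09) were higher by less than 1 on the log2 scale, and SLC6A16 by 1.3. SLC6A12, which takes up betaine and GABA, was the one that fell, to 192 ± 13.1 in resistant cells, against 444 ± 37.6 in parental cells (-1.21 ± 0.10). SLC6A20 was without a read in parental Huh7 and had 16 over the resistant group, at least 5.84-fold higher against 3 reads over the group. All 3 SLC1 genes were lower in resistant Huh7, the retinal glutamate carrier SLC1A7 by the most (13.5, 15.7 and 6.18 in resistant and 47.0, 39.7 and 54.3 in parental libraries, -1.99 ± 0.32).

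To show what lies before the start of solute carriers that were lower in resistant Huh7, sequences are given for 4 of these genes. Each is the 250 bases upstream of the first RefSeq start listed, 5′ to 3′ on the coding strand (RefSeq, GRCh38.p14, a build other than that of the deposited values). Capitals mark matches to TGATGNAA, the C/EBP-ATF element of amino acid response genes, or to TGACNNNGC, the core of the antioxidant response element, searched on both strands. SLC3A2 is at chr11:62881449-62881698 on the plus strand, SLC7A5 at chr16:87869508-87869757, SLC1A5 at chr19:46788595-46788844 and SLC38A2 at chr12:46372774-46373023, the last 3 on the minus strand.
SLC3A2: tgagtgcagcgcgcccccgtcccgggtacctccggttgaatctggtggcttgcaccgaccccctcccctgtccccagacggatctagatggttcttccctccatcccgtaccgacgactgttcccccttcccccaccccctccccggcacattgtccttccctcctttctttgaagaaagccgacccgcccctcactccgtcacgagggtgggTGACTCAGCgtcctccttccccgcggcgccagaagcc
SLC7A5: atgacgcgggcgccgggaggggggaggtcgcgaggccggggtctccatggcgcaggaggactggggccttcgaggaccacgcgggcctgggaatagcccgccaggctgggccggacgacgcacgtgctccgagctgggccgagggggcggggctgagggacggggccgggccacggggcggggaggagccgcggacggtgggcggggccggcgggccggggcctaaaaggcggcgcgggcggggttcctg
SLC1A5: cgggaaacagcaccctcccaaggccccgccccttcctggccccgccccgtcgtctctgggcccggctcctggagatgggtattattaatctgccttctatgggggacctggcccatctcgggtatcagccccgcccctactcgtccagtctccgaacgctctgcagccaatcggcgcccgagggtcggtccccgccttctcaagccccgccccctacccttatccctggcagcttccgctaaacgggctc
SLC38A2: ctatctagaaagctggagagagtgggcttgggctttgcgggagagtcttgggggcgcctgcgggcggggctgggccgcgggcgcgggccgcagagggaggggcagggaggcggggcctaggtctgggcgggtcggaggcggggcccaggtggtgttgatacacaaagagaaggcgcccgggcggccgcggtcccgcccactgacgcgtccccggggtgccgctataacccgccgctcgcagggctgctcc
The single match, TGACTCAGC, starts 37 bases before the SLC3A2 start and reads as an antioxidant response core; its first letters also spell the AP-1 site TGACTCA. Over the first start of each of 27305 genes, windows of this length held that core in 11% and the C/EBP-ATF element in 3.19%. Of the 217 solute carriers 176 had an entry, and 21 of these (11.9%) held the antioxidant core and 2 (1.14%) the C/EBP-ATF element. SLC7A11 had no entry. A match describes letters and not binding. Only these windows were searched, so elements at other starts or after the start would be missed. SLC3A2 and SLC1A5 have 3 listed starts each.

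In Huh7 the carriers of monocarboxylates split as well. SLC16A1, which carries lactate and pyruvate in either direction, had 4427, 4471 and 4667 scaled reads in resistant and 2683, 2889 and 3057 in parental libraries (0.65 ± 0.06). SLC16A3, the lactate exporter of glycolytic cells, had 1002, 934 and 929 in resistant and 2305, 2218 and 1828 in parental libraries (-1.14 ± 0.08). The first was higher and the second was lower in every resistant library. SLC16A10, a carrier of aromatic amino acids, rose, with 853, 863 and 789 scaled reads in resistant and 251, 305 and 359 in parental libraries (1.46 ± 0.10, adjusted p = 2.55e-10), and the citrate importer SLC13A5 was higher too (0.64 ± 0.07). SLC16A9, a carnitine carrier, averaged 358 ± 24.7 in resistant and 186 ± 17.6 in parental cells (0.94 ± 0.11). Over the group, 5 of 8 were higher, against 48.0% of all genes. The poorly known SLC16A14 had few reads and fell (9.70 ± 1.60 in resistant and 43.1 ± 11.5 in parental cells, -2.02 ± 0.30).

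In the sugar and polyol group, taken by family number, 10 genes were higher and 5 lower in resistant Huh7. Over all genes of the line 48.0% were higher, and every gene was listed for having passed, so the split is a description. SLC2A10 rose most, with 143, 101 and 102 scaled reads in resistant and 16.7, 16.3 and 12.9 in parental libraries (2.83 ± 0.23, adjusted p = 1.55e-09). The mannose and glucose carrier SLC5A9 had 411, 409 and 339.9 in resistant and 111, 70.2 and 81.1 in parental libraries (2.16 ± 0.15). SLC5A8, in the same family but a carrier of lactate and short-chain fatty acids, had 68.5, 50.4 and 67.0 in resistant and 18.6, 12.2 and 25.9 in parental libraries (1.71 ± 0.27). These rises left no overlap between groups. The insulin-responsive glucose carrier SLC2A4 averaged 216 ± 6.35 in resistant and 99.7 ± 8.07 in parental cells (1.11 ± 0.13), and SLC37A1 425 ± 26.5 in resistant and 226 ± 32.7 in parental cells (0.92 ± 0.11). SLC2A2, the main glucose carrier of hepatocytes, fell instead, with 120.4, 119.7 and 119 scaled reads in resistant and 319, 343 and 313 in parental libraries (-1.43 ± 0.11, adjusted p = 8.13e-10). The resistant libraries lay within 1 read of each other and far under the parental ones. The urate carrier SLC2A9 also fell (-1.48 ± 0.24).

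Metal, ion and vitamin carriers supplied several of the largest rises in Huh7. The zinc importer SLC39A5 had 3055, 2945 and 2699.7 scaled reads in resistant and 1111, 1162 and 1040.1 in parental libraries (1.39 ± 0.06, adjusted p = 2.97e-13). SLC30A10, which exports manganese, averaged 1088 ± 60.7 in resistant and 609 ± 37.9 in parental cells (0.84 ± 0.07), while SLC39A14, which imports it, averaged 8960.4 ± 83.5 in resistant and 12036 ± 247 in parental cells (-0.43 ± 0.04). The manganese exporter was thus higher and the importer lower. All 3 SLC26 genes were higher, the chloride and bicarbonate exchanger SLC26A3 by the most (293, 344 and 344 in resistant and 67.6, 51.9 and 58.6 in parental libraries, 2.45 ± 0.14). SLC4A8, a sodium-driven bicarbonate exchanger, was nearly silent in parental cells and rose, with 27.0, 31.5 and 13.4 scaled reads in resistant and 0.979, 1.02 and 1.72 in parental libraries (3.41 ± 0.44, or 2.16 with a pseudocount of 5). The vitamin C carrier SLC23A1 had 37.4, 51.4 and 56.7 in resistant and 11.8, 6.11 and 6.04 in parental libraries (2.50 ± 0.32), whereas SLC23A2, the other vitamin C carrier, was lower (-0.51 ± 0.05). Of the kidney phosphate carriers, SLC34A1 was higher (1.97 ± 0.39) and SLC34A3 lower (-1.49 ± 0.37), both with under 60 scaled reads in any library.

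Cation and chloride cotransporters of the SLC12 family were higher for 4 of 5 genes in Huh7, against 48.0% of all genes. Each scaling tried gave the same split, which adds little, since few genes near 0 are listed. SLC12A2, which loads cells with sodium, potassium and chloride, averaged 1938 ± 42.6 scaled reads in resistant and 1344 ± 71.2 in parental cells (0.53 ± 0.06). SLC12A7, which lets potassium and chloride out, was higher too (0.34 ± 0.07), while SLC12A4, of the same kind, was lower (-0.38 ± 0.06). The rise of SLC12A9 was not called without resistant replicate 1 (0.23, adjusted p = 0.0544 in limma). Bicarbonate carriers SLC4A2 (-0.39 ± 0.06), SLC4A7 (-0.40 ± 0.08) and SLC4A11 of the same family (-0.85 ± 0.09) were lower, opposite to SLC4A8. Among vitamin and heme carriers, the folate importer SLC46A1 averaged 894 ± 47.4 in resistant and 604 ± 68.5 in parental cells (0.57 ± 0.08), and the heme carrier SLC48A1 156 ± 8.57 in resistant and 258 ± 17 in parental cells (-0.72 ± 0.11). SLC11A2, the iron importer, was higher (0.43 ± 0.06), and so was the zinc importer SLC39A10 (0.65 ± 0.08), while SLC39A8 was lower (-0.45 ± 0.11).

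**Figure D3:**
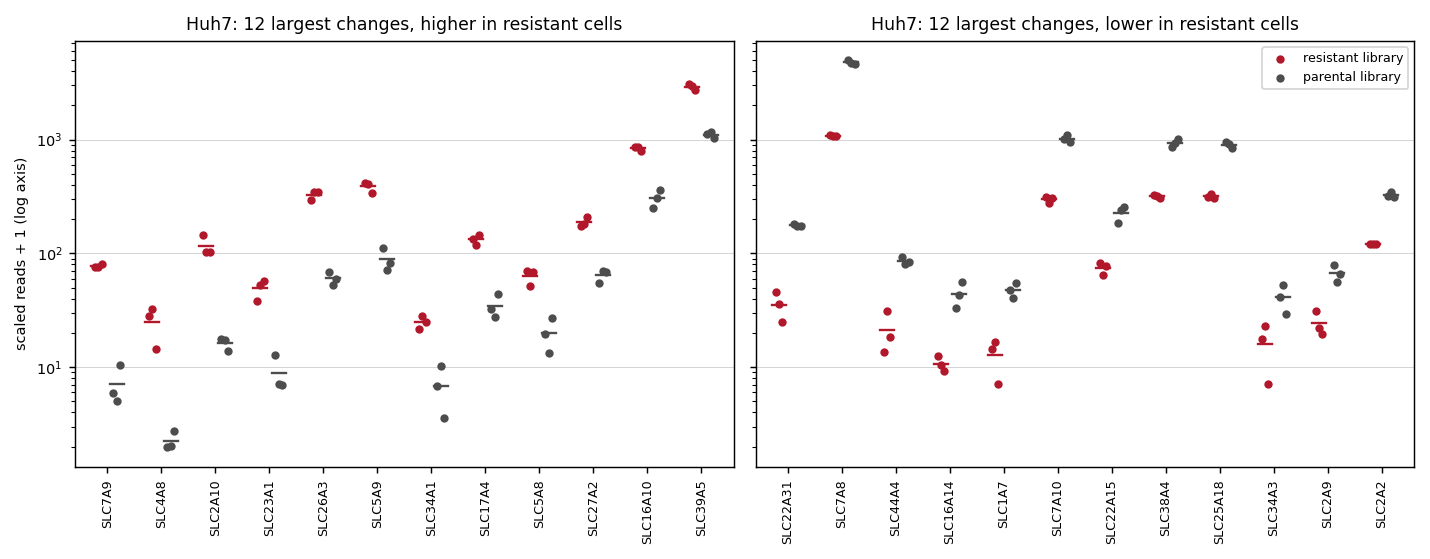
Scaled reads + 1 on a log axis in each Huh7 library for the 12 solute carriers with the largest rises (left) and the 12 with the largest falls (right), chosen as for Hep3B. Red points are resistant libraries, grey points parental ones, and bars are group means (n = 3); the resistant and parental points of each gene are separate.

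Organic ion carriers in Huh7 were higher for 7 genes and lower for 7. SLC22A31 had the largest fitted fall there, though not under edgeR or DESeq2, with 44.6, 34.6 and 23.7 scaled reads in resistant and 181, 173 and 172 in parental libraries (-2.37 ± 0.20, adjusted p = 3.25e-09). SLCO4C1, which carries thyroid hormones and steroid conjugates, was higher, with 1268, 1188 and 1198 in resistant and 557, 581 and 622 in parental libraries (1.05 ± 0.07). The carnitine carrier SLC22A5 was higher (0.37 ± 0.11), as was SLC22A18 (0.77 ± 0.13), and SLC22A17 was lower (-1.42 ± 0.30). The liver uptake carriers SLCO2B1 (0.33 ± 0.06) and SLC22A7 (1.20 ± 0.28) were higher as well. Mitochondrial carriers were lower for 13 of 22 genes, against 52.0% of all genes. The glutamate carrier SLC25A18 fell most, with 312, 329.7 and 307 in resistant and 948, 912 and 848 in parental libraries (-1.51 ± 0.08). Under median centring, 9 mitochondrial carriers were higher and 10 lower. The ADP/ATP carriers SLC25A4 (597 ± 77.4 in resistant and 915 ± 62.3 in parental cells, -0.62 ± 0.09) and SLC25A6 (5452 ± 69.8 in resistant and 6970.1 ± 762 in parental cells, -0.35 ± 0.06) were both lower. The phosphate carrier SLC25A3, which feeds ATP synthesis with them, was higher (13438 ± 473 in resistant and 11278 ± 505 in parental cells, 0.25 ± 0.05). Export of citrate and oxoglutarate runs through SLC25A1 (-0.36 ± 0.05) and SLC25A11 (-0.51 ± 0.07), which were lower, and the iron carrier SLC25A37 was higher (0.50 ± 0.08). SLC25A13, the aspartate and glutamate carrier of the urea cycle, rose slightly (0.19 ± 0.05), and SLC25A15 fell (-0.40 ± 0.09). All 3 listed SLC29 carriers, a family that moves nucleosides and amines, were lower, at log2 fold changes of -0.50 to -0.32. The long-chain fatty acid carrier SLC27A2 rose, with 174, 181 and 207 in resistant and 53.9, 69.2 and 67.3 in parental libraries (1.55 ± 0.15), and SLC44A4 of the choline carrier family fell (-2.11 ± 0.27) while the choline importers SLC44A1 (0.55 ± 0.06) and SLC44A2 (0.66 ± 0.10) rose. SLC17A4 rose (1.97 ± 0.20) together with its neighbour SLC17A2 on chromosome 6 (0.85). SLC10A1, SLC29A1 and SLC19A1 were looked for and were not analysed here.

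The lines were then compared over the 73 solute carriers in both tables, to ask whether the change with resistance was the same in each. For 41 of them the log2 fold change differed between Huh7 and Hep3B (56.2%, against 66.3% of all 3885 shared symbols). Every shared symbol had already passed the authors' test in Huh7. A difference from Hep3B was thus favoured by the selection, and genes unchanged in Huh7 could not enter. Leaving out Hep3B entries that were non-coding or low kept 53 genes, of which 38 differed. The share of all symbols under this filter was not computed, so 66.3% is not its background. In both lines 9 were higher (12.3%, against 12.1% of all shared symbols) and 7 were lower (9.59%, against 13.6%). Another 12 were lower in Hep3B and higher in Huh7 (16.4%, against 12.5%), and 4 were higher in Hep3B and lower in Huh7 (5.48%, against 16.6%). The remaining 41 did not pass in Hep3B, with 15 higher in Huh7 (20.5%, against 21.2% of all shared symbols) and 26 lower (35.6%, against 23.9%). Without the non-coding or low Hep3B entries, 8 of these 15 and 13 of these 26 were left. The other patterns lost no gene. A Hep3B entry is 1 transcript and a Huh7 value is a whole gene, so for genes with several transcripts a difference between transcripts and one between the lines cannot be told apart.

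**Figure D4:**
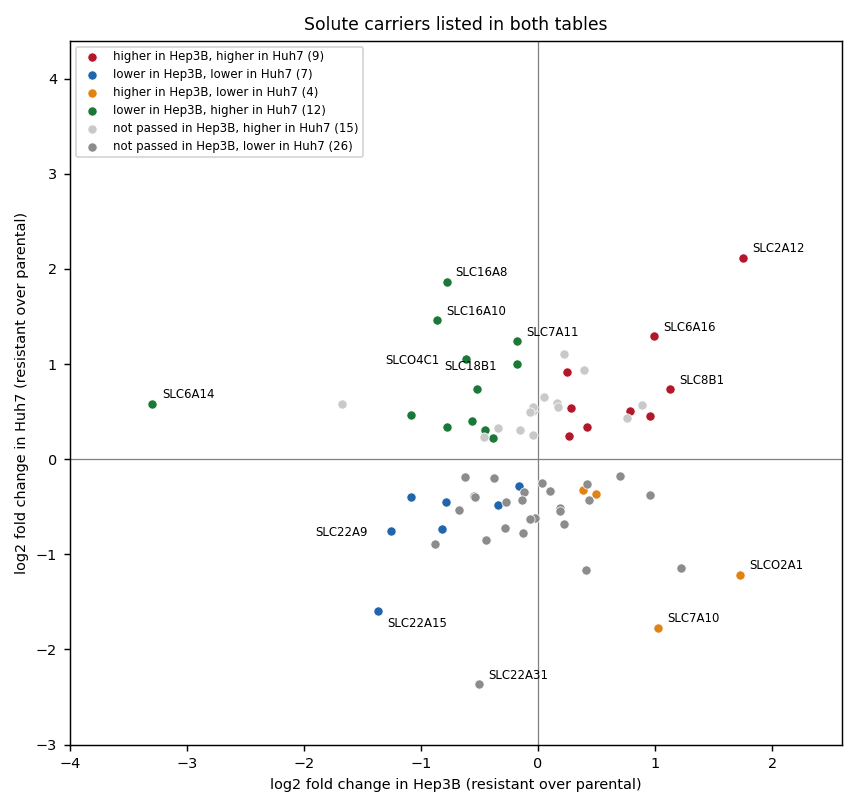
Log2 fold change, resistant over parental, in Huh7 (vertical axis) against Hep3B (horizontal axis) for the 73 solute carriers in both tables, 1 point per gene, coloured by the calls in each line with the number of genes in the key. The 12 green and 4 orange points, SLC6A14 and SLCO2A1 among them, lie in the areas of opposite sign.

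The genes that were higher in both lines are SLC2A12, SLC8B1, SLC6A16, SLC26A2, SLC25A35, SLC12A7, SLC22A3, SLC36A1 and SLC37A1. In Huh7, SLC2A12 had 28.0, 11.5 and 18.5 scaled reads in resistant and 2.94, 7.13 and 1.72 in parental libraries (2.12 ± 0.45), beside 1.75 ± 0.19 in Hep3B. SLC8B1 had 519, 532 and 519 in resistant and 339.9, 315 and 289 in parental Huh7 libraries (0.74 ± 0.09, beside 1.13 ± 0.14). The rises of SLC22A3, SLC36A1 and SLC37A1 in Hep3B, of 0.25 to 0.28, were lost under TMM, median centring, quantile normalization, edgeR and DESeq2, and also with most libraries left out singly. Lower in both lines were SLC22A15, SLC22A9, SLC5A3, SLC19A2, SLC25A15, SLC25A42 and SLC35B4, the last of these by little and without a call in 6 of 18 settings in Hep3B and under median centring in Huh7. The fall of SLC25A42 in Hep3B did not pass without parental replicate 1 (adjusted p = 0.0555 in limma). SLC22A15 had 81.0, 64.0 and 76.2 scaled reads in resistant and 184, 239 and 254 in parental Huh7 libraries (-1.59 ± 0.15), beside -1.37 ± 0.12 in Hep3B, and the difference did not pass (-0.23 ± 0.19, adjusted p = 0.311). SLC5A3 had 399.6, 433 and 469.7 in resistant and 682, 701 and 783 in parental Huh7 libraries (-0.73 ± 0.08; difference from Hep3B 0.08 ± 0.11, adjusted p = 0.533). SLC22A9 fell less in Huh7, by 0.75, than in Hep3B, by 1.26 (difference 0.51 ± 0.11, adjusted p = 0.00057).

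For the 16 solute carriers that moved in opposite directions, a difference between the lines follows from how they were chosen, so it is given as a description. The prostaglandin carrier SLCO2A1, with 1 RefSeq transcript, was higher in resistant Hep3B but lower in resistant Huh7, with 353, 356 and 382 scaled reads in resistant and 872, 905 and 763 in parental Huh7 libraries. Its difference between the lines, Huh7 minus Hep3B, was -2.94 ± 0.15. SLC6A14, also with 1 transcript, went the other way, lower in Hep3B and higher in Huh7 (difference 3.89 ± 0.29). SLC7A10 and SLC20A1, the phosphate importer, followed SLCO2A1, as did SLC38A10. SLC20A1 had 3975, 3479.8 and 3486 scaled reads in resistant and 2638, 2431 and 2665 in parental Hep3B libraries (0.50 ± 0.06), and 3396, 3351 and 3124 in resistant and 4177, 4118 and 4388 in parental Huh7 libraries (-0.36 ± 0.05). Resistant cells were the higher group in Hep3B and the lower one in Huh7, with no overlap in either line.

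The copper importer SLC31A1, with 1 transcript, was lower in Hep3B (-0.56 ± 0.06) and higher in Huh7, where it had 3525, 3607 and 3695 scaled reads in resistant and 2627, 2759 and 2809.9 in parental libraries (0.40 ± 0.05; difference 0.96 ± 0.08). SLC16A10 had 419, 345 and 359.8 in resistant and 691, 686 and 661 in parental Hep3B libraries (-0.86 ± 0.09), and its difference between lines was 2.33 ± 0.14. SLCO4C1 had 224, 226 and 193 in resistant and 348, 307 and 329 in parental Hep3B libraries (-0.61 ± 0.11; difference 1.66 ± 0.13). These carriers were lower in resistant Hep3B and higher in resistant Huh7. So was SLC35D1, with 623, 667 and 692 in resistant and 1153, 1211 and 1039 in parental Hep3B libraries, and 3121, 3500.4 and 3277 in resistant and 2421, 2678 and 2742 in parental Huh7 libraries (difference 1.11 ± 0.09). The mitochondrial carriers SLC25A23, for ATP-Mg and phosphate, and SLC25A38, for glycine, followed with smaller changes (differences 0.76 ± 0.08 and 0.61 ± 0.10), as did the calcium exchanger SLC24A1 (1.26 ± 0.22) and SLC43A1 (1.54 ± 0.29). SLC16A8, a lactate carrier of the retina, had at most 41.7 scaled reads in any library and was called lower in Hep3B (-0.78 ± 0.29), which 5 of 18 settings did not keep, those without resistant replicate 1 or 3 and without parental replicate 2 or 3 among them. The polyamine carrier SLC18B1 was higher in Huh7, with 4495, 4349 and 4272 scaled reads in resistant and 2130.3, 2123 and 2320.0 in parental libraries (1.0 ± 0.05). Its fall in Hep3B was small, its groups overlapped, and 5 of 18 settings did not keep it, those without resistant replicate 2 and without parental replicate 1 or 3 among them (-0.18 ± 0.07). Without resistant replicate 3 or parental replicate 3 the Hep3B fall of SLC24A1 did not pass (adjusted p = 0.0547 and 0.0634 in limma).

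**Figure D5:**
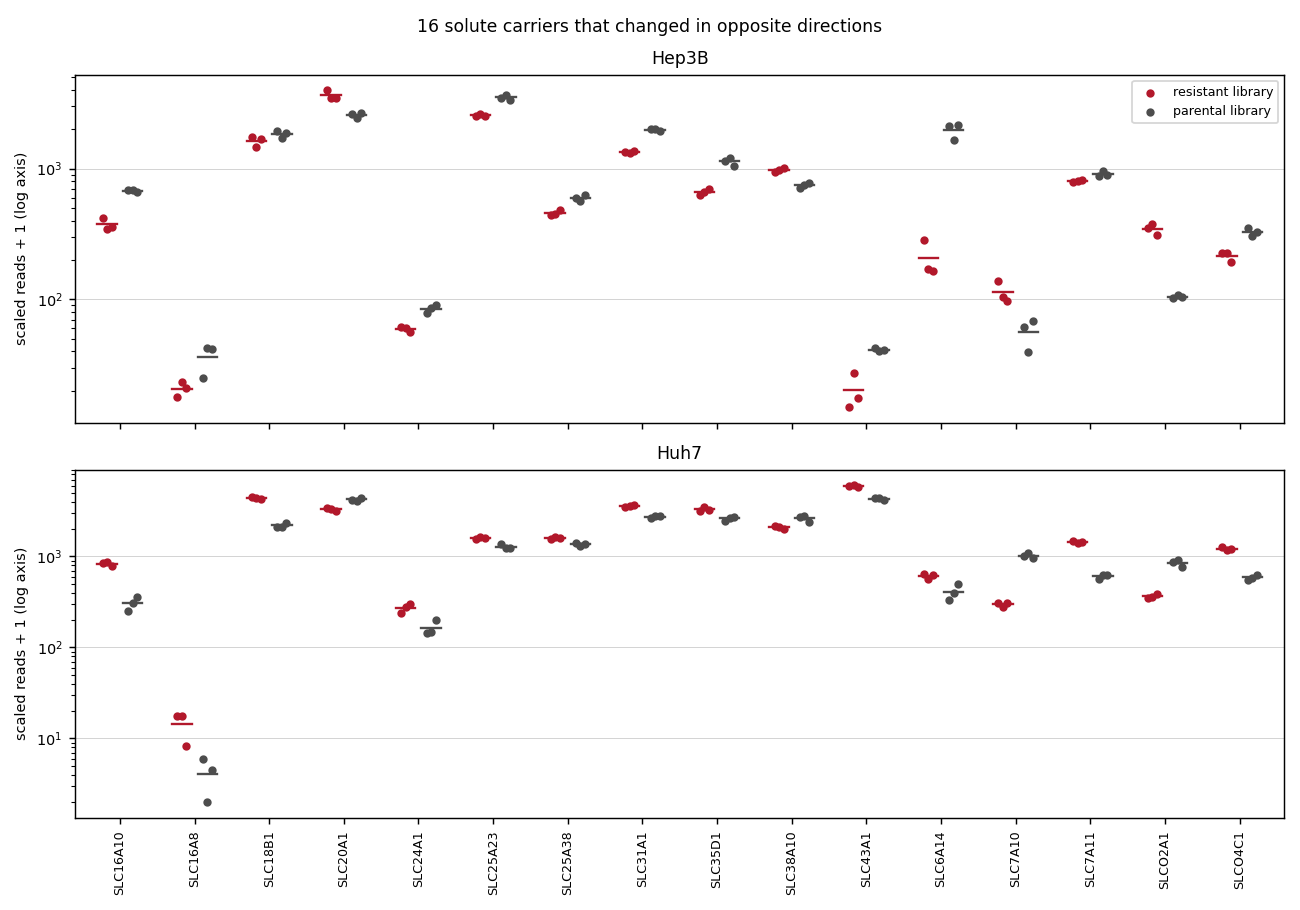
Scaled reads + 1 on a log axis in each library of Hep3B (top) and Huh7 (bottom) for the 16 solute carriers called in opposite directions. Red points are resistant libraries, grey points parental ones, and bars are group means (n = 3); in Hep3B the SLC18B1 points of the groups overlap.

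Other genes of the transport system gave the following. Of 37 solute carriers known under other names, 16 were listed in Hep3B (3 higher, 7 lower, 6 not passed, median -0.17) and 14 in Huh7 (7 higher and 7 lower, median -0.07). The mitochondrial serine carrier family member SFXN3 was higher in both lines, at 659 ± 33.0 scaled reads in resistant and 291 ± 26.9 in parental Hep3B (1.18 ± 0.09), and at 805 ± 18.9 in resistant and 298 ± 23.7 in parental Huh7 (1.43 ± 0.08). Of 26 partners and regulators, 17 were listed in each line, with 4 higher, 3 lower and 10 not passed in Hep3B, and 7 higher and 10 lower in Huh7. EMB, a chaperone that brings monocarboxylate carriers to the surface, was higher in both, at 189.8 ± 26.7 in resistant and 52.6 ± 11.5 in parental Hep3B (1.84 ± 0.18) and at 127 ± 10.8 in resistant and 39.7 ± 2.22 in parental Huh7 (1.65 ± 0.17). Its better known relative BSG was higher in Hep3B on few reads (20.5 ± 5.06 in resistant and 9.03 ± 5.74 in parental cells, 1.22 ± 0.42) and slightly lower in Huh7 (-0.23 ± 0.05), and the sodium pump subunits ATP1B1 (-0.52 ± 0.05) and ATP1B3 (-0.47 ± 0.05) were lower there. NEDD4L, a ubiquitin ligase that removes carriers from the surface, averaged 4382 ± 21.5 in resistant and 2125 ± 61.4 in parental Huh7 (1.04 ± 0.05). TXNIP, which restrains glucose carriers, fell to 13.7 ± 4.90 scaled reads in resistant Hep3B, against 78.5 ± 15.0 in parental Hep3B (-2.47 ± 0.28). Of 16 transcription factors that act on solute carrier genes, 5 were listed in Hep3B (1 higher, 1 lower) and 12 in Huh7 (6 higher, 6 lower). MYC, which acts on amino acid and glucose carrier genes, was lower in resistant Hep3B (2254 ± 27.4 in resistant and 3344 ± 35.3 in parental cells, -0.57 ± 0.05) and higher in resistant Huh7 (2795 ± 188 in resistant and 1901 ± 81.5 in parental cells, 0.55 ± 0.06). NR0B2, the bile acid induced repressor, was higher in Hep3B (0.90 ± 0.07) and lower in Huh7 (-1.18 ± 0.09). PPARA and its coactivator PPARGC1A, which act on fatty acid and carnitine carrier genes, were higher in Huh7 (1.20 ± 0.10 and 1.72 ± 0.16). In Huh7, NFE2L2, the antioxidant response factor, was higher (0.64 ± 0.06), and ATF4, the amino acid response factor, was lower (-0.29 ± 0.05).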

How the data were processed

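RNA-seq values of 12 libraries were analysed: resistant and parental cells of 2 lines, 3 libraries per group. GRCh37 is the build that the submitters' processing notes name. The sources used here give no aligner, counter, annotation or strand setting, so reads of overlapping or antisense genes cannot be told apart. The deposited signal values of Hep3B were 2 times the square root of scaled reads with a small constant added, and those of Huh7 were scaled reads. Undoing this gave whole reads for 100% of values in each library, within 0.05. The deposited log2 fold changes and deposited adjusted p-values (at most 0.0499 in Huh7) were used only as alternative calls. One Hep3B entry without a gene name (0.000119% of reads) was left out.

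Each line was fitted on its whole table with limma 3.58.1 (trend, robust; R 4.3.3) on log2(scaled reads + 1), keeping features that reached 1 scaled read in 3 or more libraries. This is the test planned for normalized values; the square-root scale had not been foreseen. The change in Huh7 minus that in Hep3B was divided by its combined standard error and tested two-sided, with adjustment over 3885 symbols. edgeR 4.0.16 and DESeq2 1.42.0 on the recovered reads, other scalings, filters, pseudocounts and left-out libraries were alternatives. On simulated Hep3B data of 8681 features, 94 of 100 genes changed by 2-fold were recovered, and on simulated Huh7 data of 7447 features 100 of 100. For changes of 1.5-fold, 78 of 100 and 85 of 100 were recovered. The changed genes all had a parental mean of at least 20 scaled reads, with 1 fixed spread. Far fewer genes changed there than in the data. Recovery of genes with fewer reads was therefore not tested. Members, lists and tests were chosen with earlier results of these data known. Genes named are the 12 largest rises and falls per line among called, non-overlapping ones with 20 scaled reads in a group, all called in opposite directions, and 27 carriers set by role; the others were named after their values were seen, and some items are not reported here. No 2 libraries were identical, and all pairs within a group differed beyond sampling noise. Parental Huh7 replicates 1 and 3 differed most, with a chi-square per degree of freedom of 13.43. The other pairs had 2.49 to 5.52, where sampling noise alone gives about 1.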

Additional observations from a re-analysis of the deposited data

Results flagged for a closer look

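The change with resistance differed between the lines, by a test of the difference itself, for 24 of the solute carriers named by the rule. For the 16 called in opposite directions this follows from how they were chosen. For the others a difference was favoured, since every Huh7 gene listed had already passed the authors' test. Each value is the log2 fold change in Huh7 minus that in Hep3B.

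The difference was positive, with the change in Huh7 above that in Hep3B, for SLC6A14 at 3.89, SLC16A8 at 2.65, SLC16A10 at 2.33, SLCO4C1 at 1.66, SLC43A1 at 1.54, SLC7A11 at 1.42 and SLC24A1 at 1.26. It was also positive for SLC18B1 at 1.18, SLC35D1 at 1.11, SLC31A1 at 0.96, SLC25A23 at 0.76, SLC25A15 at 0.69, SLC25A38 at 0.61, SLC22A9 at 0.51 and SLC19A2 at 0.33.

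It was negative for SLCO2A1 at -2.94, SLC7A10 at -2.79, SLC16A3 at -2.36, SLC22A31 at -1.86, SLC1A5 at -1.58, SLC20A1 at -0.86, SLC38A10 at -0.71, SLC7A5 at -0.56 and SLC8B1 at -0.39. The Hep3B entries of SLC1A5 and SLC16A3 held under 12 scaled reads in each library. The difference for SLC1A5 passed in 15 of 22 alternatives, that for SLC8B1 in 8 of 23 and that for SLC19A2 in 22 of 23, while the others passed in every alternative that gave a value. Leaving out resistant Hep3B replicate 1 or 3 or parental Hep3B replicate 1 ended the call for SLC1A5, and leaving out any 1 of 9 libraries ended that for SLC8B1. SLCO2A1, SLC6A14, SLC7A5, SLC20A1, SLC31A1 and SLC25A15 each have 1 RefSeq transcript, so their Hep3B entry covers the annotated gene.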

How the results depend on the processing

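All 5 counts of calls stayed within 1.5 times their value under every alternative run. For the Huh7 counts this adds little, since every gene listed had already passed the authors' test. The same selection favoured the count of differences between lines. Leaving out 1 library at a time gave 28 to 33 solute carriers higher and 24 to 31 lower in Hep3B, 74 to 75 higher and 74 to 75 lower in Huh7, and 36 to 43 with a difference between lines. The replicate numbers were not taken to pair the libraries, since no correlation of same-numbered deviations reached the chosen limit of 0.1. These correlations were 0.04, 0.09 and 0.06 in Hep3B and -0.01, 0.01 and 0.05 in Huh7. In Hep3B, however, each library correlated best with its own number. With the replicate number as a block, 39 were higher and 37 lower in Hep3B, 75 and 75 in Huh7, and 43 differed; SLC7A5 and SLC38A2 then passed in Hep3B. Of the alternatives for genes named by the rule, 1818 kept the call or its absence, 25 lost a call and 6 gained one. All losses and gains were in Hep3B, and no called value changed sign. Some values that did not pass changed sign, as for SLC1A5 in Hep3B, which ran from -0.13 to 0.9. Among other called solute carriers 125 lost the call, and SLC20A2 and SLC39A7 in Huh7 turned to 0.01 under median centring (by its construction). A pseudocount of 5 lowered the log2 fold changes of low genes most, to 3.46 for SLC35F1, 2.07 for SLC38A5 and -1.20 for SLCO1B3 in Hep3B and to 2.91 for SLC7A9, 1.44 for SLC2A12 and 1.17 for SLC16A8 in Huh7, all still called. Keeping only coding Hep3B entries with 20 scaled reads in a group, an alternative chosen after seeing the data, left 33 higher, 29 lower and 38 differing. Summing entries per symbol was not run, since each symbol has 1 Hep3B entry, and the authors' tables hold no call for the difference. Few reads limit the Hep3B entries most: of the 35 that were low or non-coding 11.4% were called, against 59.0% of the other 105.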
